A study of Mus musculus with 8 samples.

Results

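The genes described here encode the enzymes that write, maintain and remove DNA methylation. They are 9 genes chosen by name: Dnmt1, Dnmt3a, Dnmt3b, Dnmt3l, Uhrf1, Tet1, Tet2, Tet3 and Tdg. All 9 are among the 55291 gene symbols of the count tables, and all 9 were among the 16371 genes with enough reads to be tested. Their mRNA was read from 8 RNA-seq libraries. The mouse embryonic stem cells carried either DHX35 or GPATCH1 with a dTAG (FKBP12 F36V) degron at the endogenous gene. DHX35 is an RNA helicase and GPATCH1 its G-patch partner in splicing quality control, and dTAG-13 is a compound that directs the tagged protein to degradation. The 4 groups were DHX35-dTAG cells in DMSO, DHX35-dTAG cells in dTAG-13, GPATCH1-dTAG cells in DMSO and GPATCH1-dTAG cells in dTAG-13, each with 2 libraries. The compound was given at 200 nM for 4 h, and DMSO is its solvent. The labels name the cell line E14, whereas the growth protocol describes R1 cells, in serum medium with LIF and the inhibitors PD0325901 and CHIR99021. The labels name no clone of either edited line and include no untagged cells. They also do not say whether replicates came from separate cultures, so p-values measure the spread between these libraries only.

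DNA methylation in mammals is the addition of a methyl group to cytosine, mostly in CpG dinucleotides. DNMT3A and DNMT3B place new methyl groups, DNMT3L binds and stimulates them without being an active enzyme itself, and DNMT1 copies the pattern to the new strand after replication, guided there by UHRF1. The TET dioxygenases oxidise methylcytosine, and the glycosylase TDG excises the most oxidised forms, so that base excision repair can restore an unmodified cytosine. Embryonic stem cells are known for high Tet1, Tet2 and Dnmt3l, and for tolerating the loss of DNA methylation.

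Positions are those of GRCm38 (GENCODE M21). Dnmt1 (ENSMUSG00000004099.16) spans chr9:20907209-20959888 on the minus strand, Dnmt3a (ENSMUSG00000020661.15) chr12:3806007-3914443 on the plus strand, Dnmt3b (ENSMUSG00000027478.15) chr2:153649450-153687730 on the plus strand and Dnmt3l (ENSMUSG00000000730.13) chr10:78041947-78063622 on the plus strand. Uhrf1 (ENSMUSG00000001228.14) spans chr17:56303321-56323486 on the plus strand. Tet1 (ENSMUSG00000047146.17) spans chr10:62804570-62908996, Tet2 (ENSMUSG00000040943.12) chr3:133463679-133545139 and Tet3 (ENSMUSG00000034832.15) chr6:83362373-83459084, all 3 on the minus strand. Tdg (ENSMUSG00000034674.18) spans chr10:82629828-82650799 on the plus strand. Tet1, Dnmt3l and Tdg thus share chromosome 10.

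The start sites of these genes differ widely in CpG content, the substrate of the enzymes they encode. RefSeq (GRCm38.p6) gives 16 start sites for the 9 genes, with windows of 300 bases from 250 before to 50 after each start. These windows held between 2 and 57 CpG, with at least 20 CpG in 8 of the 16. Of the 32841 windows of all genes, 26.5% held as many, and their median was 7. Among the 8 are 2 windows of Dnmt3a that overlap, with 46 and 47 CpG. The windows of all genes were not limited to genes expressed here. The window of Tet2 held 57 CpG, a number reached by 0.152% of all windows. The 3 windows of Dnmt3l held 6, 4 and 3 CpG. Tet2 and the first start of Dnmt3l are printed here, 5′ to 3′ on the strand of the gene and with each CpG in capitals, because these 2 genes deviated most, in opposite directions, in the library that stands apart below. The Tet2 window is chr3:133544341-133544640 on the minus strand and the Dnmt3l window chr10:78042037-78042336 on the plus strand.
Tet2: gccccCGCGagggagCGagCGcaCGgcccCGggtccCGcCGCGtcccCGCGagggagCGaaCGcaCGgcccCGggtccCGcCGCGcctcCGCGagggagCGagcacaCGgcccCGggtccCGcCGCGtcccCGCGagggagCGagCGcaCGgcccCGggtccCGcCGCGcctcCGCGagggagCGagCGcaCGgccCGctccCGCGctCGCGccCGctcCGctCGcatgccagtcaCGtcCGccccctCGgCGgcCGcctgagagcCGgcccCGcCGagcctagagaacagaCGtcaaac
Dnmt3l: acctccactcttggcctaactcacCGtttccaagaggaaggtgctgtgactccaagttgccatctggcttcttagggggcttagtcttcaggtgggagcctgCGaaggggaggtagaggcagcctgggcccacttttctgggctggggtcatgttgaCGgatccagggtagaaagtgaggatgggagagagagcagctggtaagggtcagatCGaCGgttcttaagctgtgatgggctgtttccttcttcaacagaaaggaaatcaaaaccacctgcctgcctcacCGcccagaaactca
The Tet2 window is dense in CpG along almost its whole length, and that of Dnmt3l holds few, scattered CpG. DNA methylation itself was not measured in these libraries.

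The identity of the cells was examined first. All 8 embryonic stem cell markers (Pou5f1, Sox2, Nanog, Zfp42, Esrrb, Klf4, Tfcp2l1 and Dppa5a) were high in every library, between 228 and 1694 CPM, the counts relative to the TMM-scaled library size. The summed level was 3.89 to 6.10 CPM for 3 primed epiblast markers, 10.7 to 15.0 CPM for 7 fibroblast markers, of which Lum was at 0 in all libraries, and 4.14 to 5.40 CPM for 6 endoderm markers. Gpatch1 had 347, 364, 271 and 268 counts in DHX35-dTAG cells and 113, 78, 114 and 100 in GPATCH1-dTAG cells, and was thus lower in the line in which it is tagged, with and without dTAG-13. Dhx35 had 661 to 1251 counts. dTAG-13 removes the protein, so neither mRNA level checks the depletion. Total counts were between 12014203 and 14994173 per library, and a gene of the set had at least 230 counts in each. The 2 genes with the most counts took 12% and 20.2% of the counts in DHX35-dTAG cells in dTAG-13, against 3.15% and 1.54% in DMSO. In GPATCH1-dTAG cells they took 4.23% and 20.9% in DMSO and 1.27% and 2.02% in dTAG-13. The share was thus higher in dTAG-13 in DHX35-dTAG cells and lower in dTAG-13 in GPATCH1-dTAG cells, and its part in the results was not tested. DHX35-dTAG DMSO replicate 1 stood apart, with a mean correlation of 0.976 with the other libraries against 0.988 to 0.990 for the others, and the tests of the 9 genes, the medians of the related lists and the values that turn are therefore also given without it. RNA of a whole culture was measured, so fewer cells with a transcript and less of it in each cell cannot be told apart.

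The factors that maintain methylation were expressed at similar levels in all libraries. Uhrf1 was at 667 and 733 CPM in DHX35-dTAG cells in DMSO and at 761 and 721 CPM in dTAG-13. In GPATCH1-dTAG cells, Uhrf1 was at 748 and 722 CPM in DMSO and at 760 and 739 CPM in dTAG-13. In each line the DMSO and dTAG-13 groups of Uhrf1 overlapped, and its highest library was 1.14 times its lowest. Dnmt1 was at 301 and 343 CPM in DHX35-dTAG cells in DMSO and at 347 and 341 CPM in dTAG-13. In GPATCH1-dTAG cells, Dnmt1 was at 351 and 367 CPM in DMSO and at 387 and 369 CPM in dTAG-13. Dnmt1 was thus lowest in DHX35-dTAG DMSO replicate 1, and all 4 libraries of GPATCH1-dTAG cells lay above all 4 of DHX35-dTAG cells.

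Among the genes of de novo methylation, Dnmt3b was at 256 and 232 CPM in DHX35-dTAG cells in DMSO and at 239 and 233 CPM in dTAG-13. Dnmt3b was at 224 and 223 CPM in GPATCH1-dTAG cells in DMSO and at 253 and 239 CPM in dTAG-13. Its groups overlapped in the first line and were separate in the second. Dnmt3a was at 121 and 95.4 CPM in DHX35-dTAG cells in DMSO and at 103 and 97.9 CPM in dTAG-13. In GPATCH1-dTAG cells, Dnmt3a was at 88.5 and 84.3 CPM in DMSO and at 99.6 and 94.0 CPM in dTAG-13. Dnmt3a had its highest value in DHX35-dTAG DMSO replicate 1 and its 2 lowest in GPATCH1-dTAG cells in DMSO. Dnmt3l was at 404 and 292 CPM in DHX35-dTAG cells in DMSO and at 315 and 296 CPM in dTAG-13. In GPATCH1-dTAG cells, Dnmt3l was at 279 and 276 CPM in DMSO and at 314 and 286 CPM in dTAG-13. Like Dnmt3a, Dnmt3l was highest in DHX35-dTAG DMSO replicate 1, whereas the other 7 libraries lay between 276 and 315 CPM.

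Of the genes of demethylation, Tet1 was at 915 and 1436 CPM in DHX35-dTAG cells in DMSO and at 1374 and 1438 CPM in dTAG-13. In GPATCH1-dTAG cells, Tet1 was at 1434 and 1446 CPM in DMSO and at 1358 and 1473 CPM in dTAG-13. Only DHX35-dTAG DMSO replicate 1 was low, and the other 7 libraries differed by at most 1.08 times. Tet2 was at 278 and 551 CPM in DHX35-dTAG cells in DMSO and at 511 and 528 CPM in dTAG-13. In GPATCH1-dTAG cells, Tet2 was at 538 and 526 CPM in DMSO and at 489 and 545 CPM in dTAG-13. The same library was low for Tet2, whose highest value was 1.98 times its lowest with this library and 1.13 times without it. Tet3 was at 20.5 and 19.7 CPM in DHX35-dTAG cells in DMSO and at 22.1 and 21.1 CPM in dTAG-13. In GPATCH1-dTAG cells, Tet3 was at 20.3 and 20.3 CPM in DMSO and at 18.2 and 17.3 CPM in dTAG-13. Tet3 was thus higher in dTAG-13 in the first line and lower in dTAG-13 in the second, without overlap in either. Tdg was at 47.3 and 45.1 CPM in DHX35-dTAG cells in DMSO and at 45.6 and 44.8 CPM in dTAG-13. In GPATCH1-dTAG cells, Tdg was at 46.4 and 48.4 CPM in DMSO and at 49.6 and 49.1 CPM in dTAG-13. Over the 8 libraries Tdg varied least of the 9 genes, with a highest library 1.11 times its lowest, whereas without DHX35-dTAG DMSO replicate 1 Uhrf1 (1.05) and Tet1 (1.08) varied less.

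**Figure D1:**
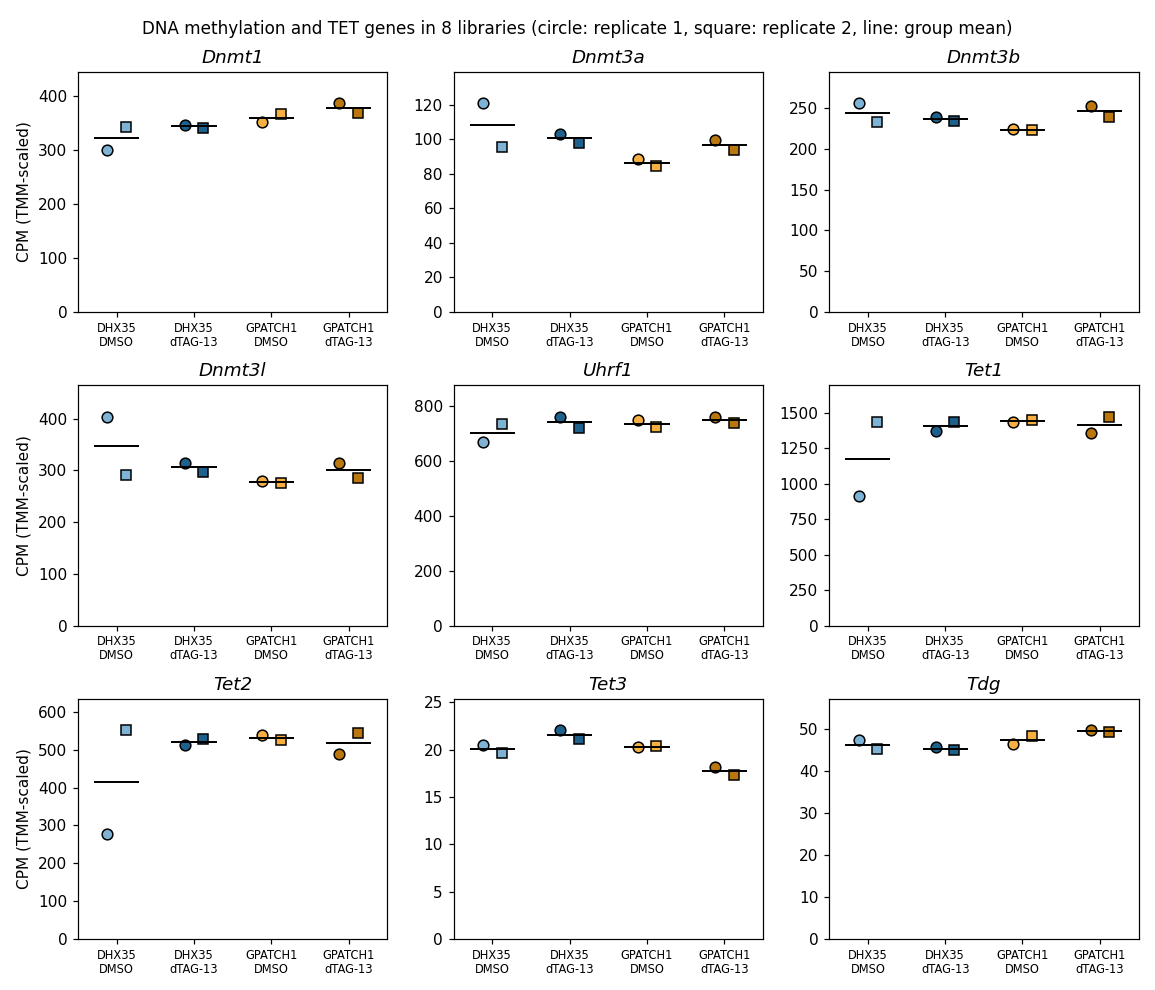
CPM after TMM scaling (y axis, from 0) of each of the 9 genes in the 4 groups (x axis), with a circle for replicate 1, a square for replicate 2 and a line at the group mean. Tet1 and Tet2 are low and Dnmt3a and Dnmt3l high in DHX35-dTAG DMSO replicate 1, and the other 7 libraries lie close together.

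Compared per length of exon sequence, Uhrf1 was the most abundant of the 9 mRNAs, with a median of 173 CPM per kilobase over the 8 libraries (range 157 to 179). Dnmt3l followed with 98.4 CPM per kilobase (92.4 to 135) and Tet1 with 92.8 (59.2 to 95.3), and the ranges of these neighbours overlapped. Dnmt1 with 47.3 CPM per kilobase (40.8 to 52.5) and Dnmt3b with 46.3 (43.6 to 50.1) also overlapped. Below them, with no overlap from one to the next, came Tet2 with 31.2 CPM per kilobase, Tdg with 8.72, Dnmt3a with 5.81 and Tet3 with 1.22. The length is that of all annotated exons of a gene joined together. With the longest annotated transcript in its place, Tet2 (57.4 CPM per kilobase) stood above Dnmt3b (54.7), and the other genes kept their places. Dnmt3a was thus the scarcest of the 4 DNMT genes described here, and Tet3 of the 3 TET genes, on the scale per kilobase.

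Of the summed level per kilobase of the 4 DNMT genes, Dnmt3l made up a median of 49.7% (48.3% to 57.9% over the libraries), Dnmt1 24.2% (17.5% to 26.1%), Dnmt3b 23.1% (21.5% to 23.6%) and Dnmt3a 2.89% (2.66% to 3.11%). Of the 3 TET genes, Tet1 made up 74.1% (73.3% to 77.0%), Tet2 25% (21.4% to 25.8%) and Tet3 0.965% (0.805% to 1.60%). In DHX35-dTAG DMSO replicate 1, the share of Dnmt3l was at its highest and that of Dnmt1 and Tet2 at its lowest. These shares use the length of all annotated exons joined together, and their ranges do not cover the choice of length. With the longest annotated transcript, the medians were 99.9 CPM per kilobase for Tet1, 57.4 for Tet2 and 1.86 for Tet3, so that Tet2 was closer to Tet1. They were 161 for Dnmt3l, 59.5 for Dnmt1, 54.7 for Dnmt3b and 9.98 for Dnmt3a.

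**Figure D2:**
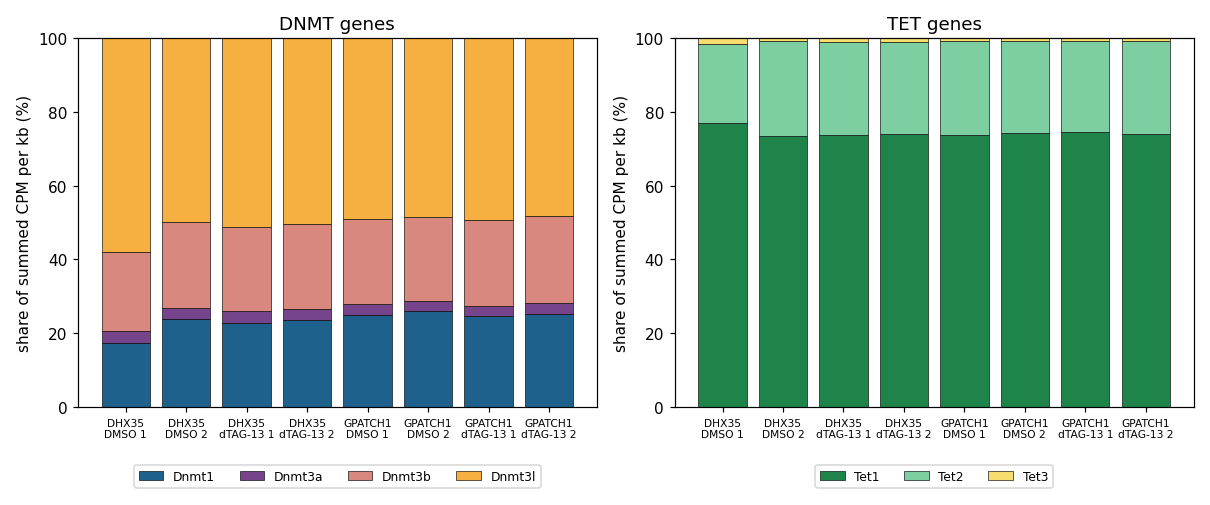
Share of the summed CPM per kilobase (y axis, in percent) that each DNMT gene (left) and each TET gene (right) took in each of the 8 libraries (x axis). Dnmt3l takes 48.3% to 57.9% of the DNMT sum and Tet1 73.3% to 77.0% of the TET sum. The length is that of all annotated exons joined together.

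The mRNAs of the DNA methylation genes did not pass the test after 4 h of DHX35 depletion, the first question of the design. Tet2 had the largest log2 fold change, 0.33 (standard error 0.25), from 415 ± 193 CPM (SD, n = 2) in DMSO to 520 ± 11.9 (SD, n = 2) in dTAG-13. Tet1 followed with 0.26 (standard error 0.17) and Dnmt3l with -0.19 (standard error 0.14), and the other 6 genes lay between -0.11 and 0.10. None of the 9 passed an adjusted p of 0.05 (lowest adjusted p = 0.72, quasi-likelihood test of edgeR, Benjamini-Hochberg adjusted), 0 had an unadjusted p under 0.05, and 0 passed in DESeq2. Over all 16371 genes, 0% were called. The share of all genes with an unadjusted p under 0.05 was 5.39% for DHX35 depletion, 2.97% for GPATCH1 depletion, 3.91% for the difference between these responses and 15.1% for the line difference. Of the 9 genes, 5 had a positive log2 fold change, with a median of 0.08, against -0.01 over all genes tested. Tet3 alone had separate groups, higher in dTAG-13, as did 14.6% of all genes.

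Without replicate 1 in DMSO, the largest values of DHX35 depletion moved. The log2 fold change of Tet2 became -0.08 (standard error 0.07), that of Tet1 -0.03 (standard error 0.07) and that of Dnmt3l 0.07 (standard error 0.08), so that all 3 changed sign, as did Dnmt3a, Dnmt3b and Tdg. The number of positive values became 7 of 9 and the median 0.02, against 0.00 over all genes. Tet3 then had the largest value, 0.14 (standard error 0.11). The 95% intervals of the 9 genes then lay between -0.24 and 0.38 on the log2 scale, and 0 of them passed, against 0.0117% of all genes. With replicate 2 in DMSO left out in its place, the lone control is the library that stands apart, and 5 of the 9 genes passed, against 28.8% of all genes. These 5 were Tet2 (log2 fold change 0.91), Tet1 (0.63), Dnmt1 (0.20), Dnmt3a (-0.26) and Dnmt3l (-0.39), with adjusted p from 1.14e-07 to 0.040 (edgeR).

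GPATCH1 depletion also left the 9 genes short of the threshold. Tet3 had the largest log2 fold change, -0.19 (standard error 0.10), from 20.3 ± 0.0561 CPM (SD, n = 2) in DMSO to 17.8 ± 0.659 (SD, n = 2) in dTAG-13. The 4 DNMT genes all had positive values, with 0.16 for Dnmt3a (standard error 0.11), 0.14 for Dnmt3b (standard error 0.08), 0.11 for Dnmt3l (standard error 0.14) and 0.07 for Dnmt1 (standard error 0.09). Tet1 and Tet2 had -0.02 and -0.04. Every adjusted p was 1.0 in edgeR's quasi-likelihood test, 0 of the 9 genes had an unadjusted p under 0.05, 0 passed in DESeq2, and 0% of all genes were called. Of the 9 genes, 6 had a positive log2 fold change, with a median of 0.06, against 0.00 over all genes.

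The groups of GPATCH1-dTAG cells were separate for 6 of the 9 genes. Dnmt1, Dnmt3a, Dnmt3b, Dnmt3l and Tdg were higher in both dTAG-13 libraries than in both DMSO libraries, as were 21.5% of all genes. Tet3 was lower in both, as were 20.3% of all genes. Without DHX35-dTAG DMSO replicate 1, which enters through the shared estimate of the spread, 0 of the 9 genes and 0.299% of all genes passed, and Dnmt3a had the lowest adjusted p of the 9 (0.48, log2 fold change 0.16, 95% interval 0.03 to 0.30). With only the 4 libraries of GPATCH1-dTAG cells in the fit, 0 of the 9 genes and 0.803% of all genes passed, and Dnmt3a again had the lowest adjusted p (0.24, edgeR).

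The responses of both lines were compared directly by their difference, GPATCH1-dTAG minus DHX35-dTAG cells. Tet2 had the largest value, -0.37 (standard error 0.35), followed by Dnmt3l with 0.30 (standard error 0.19) and Tet3 with -0.30 (standard error 0.15). None of the 9 genes passed (lowest adjusted p = 0.86, edgeR), 0 had an unadjusted p under 0.05, 0 passed in DESeq2, and 0% of all genes were called. Without DHX35-dTAG DMSO replicate 1, Tet2 had 0.04 and Dnmt3l 0.04, while Tet3 had -0.33 (95% interval -0.64 to -0.02, adjusted p = 0.93, edgeR), and 0.0528% of all genes were called. Of these 3 values, that of Tet3 alone remained without that library, and it did not pass. With replicate 2 in DMSO left out in its place, Tet2, Tet1, Dnmt3l and Dnmt3a passed, against 20.9% of all genes.

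Between the lines, averaged over DMSO and dTAG-13, none of the 9 genes passed either, although 109 of all genes did (0.666%). Dnmt1 was higher in GPATCH1-dTAG cells, at 369 CPM against 333, which is 0.15 on the log2 scale (standard error 0.06, adjusted p = 0.32, edgeR). Dnmt3a was lower in GPATCH1-dTAG cells, at 91.6 CPM against 104, which is -0.19 on the log2 scale (standard error 0.08, adjusted p = 0.32, edgeR). These 2 genes were the only ones of the 9 with an unadjusted p under 0.05, and 0 of the 9 passed in DESeq2. The other 7 lay between -0.18 for Dnmt3l and 0.18 for Tet2. Dnmt1 alone had separate lines, higher in GPATCH1-dTAG cells, as did 5.63% of all genes. The median of the 9 was 0.04, against -0.01 over all genes, and without DHX35-dTAG DMSO replicate 1 these were 0.00 and -0.00.

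Without DHX35-dTAG DMSO replicate 1, the differences between the lines lay between -0.12 for Tet3 and 0.10 for Dnmt1, and 0 of the 9 genes passed while 5.29% of all genes did. The largest 95% bound of any of the 9 was then 0.22 upwards and -0.27 downwards on the log2 scale. With replicate 2 in DMSO left out in its place, Tet2, Tet1, Dnmt3l, Dnmt3a and Dnmt1 passed, against 30% of all genes. The DMSO libraries alone, which include the library that stands apart, gave -0.32 for Dnmt3a, -0.33 for Dnmt3l, 0.29 for Tet1, 0.36 for Tet2, -0.13 for Dnmt3b and 0.01 for Tet3. The dTAG-13 libraries alone gave -0.05, -0.03, 0.01, -0.01, 0.06 and -0.28 for the same genes, so that the largest value was that of Tet3 there. Dnmt1, Uhrf1 and Tdg lay between 0.02 and 0.16 in both. Among the markers of other lineages, Krt18, a keratin of simple epithelia, was higher in GPATCH1-dTAG cells, at 15.7 CPM against 8.45 (log2 difference 0.91, standard error 0.16, adjusted p = 0.048, edgeR), and its part in the values of the 9 genes was not tested. The summed level of the 7 mesoderm and ectoderm markers was 53.3 to 86.2 CPM. The clone, the tag and the culture differ together between the lines and cannot be told apart.

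**Figure D3:**
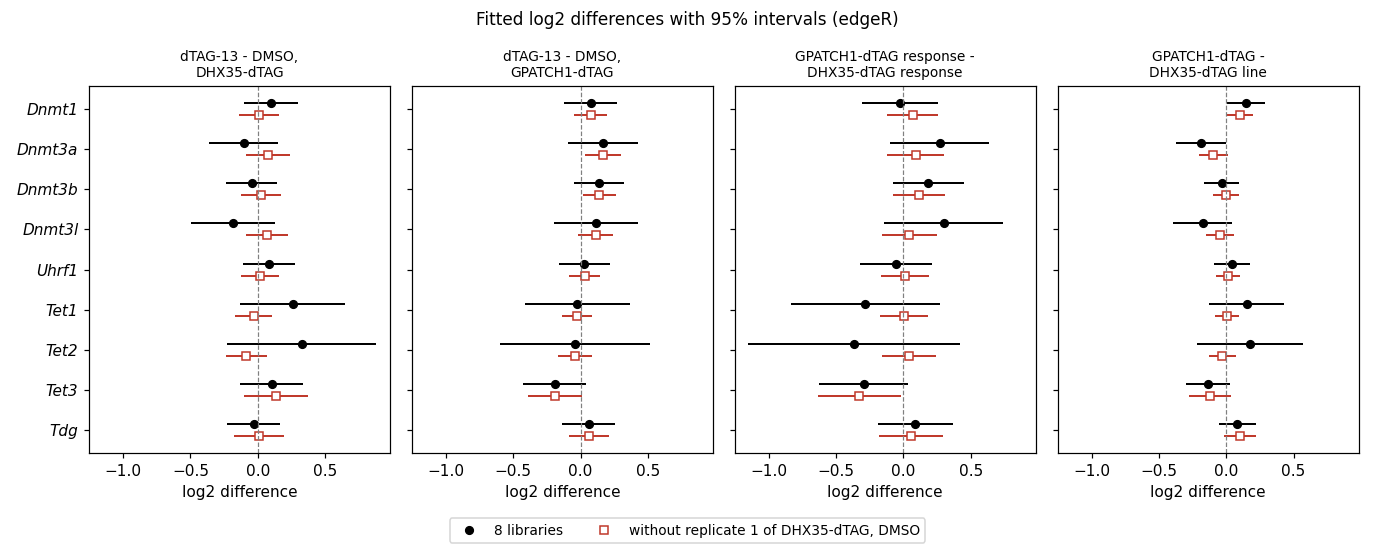
Log2 difference (x axis) of each of the 9 genes (y axis) in the 4 comparisons, with 95% intervals from edgeR, for all 8 libraries (filled circles) and without DHX35-dTAG DMSO replicate 1 (open squares). The intervals of Tet1 and Tet2 are wide with all 8 libraries, and without that library the values of DHX35 depletion lie between -0.08 and 0.14.

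The library that stands apart did not shift the 9 genes in 1 direction. Compared with the mean of the other 3 libraries of its line, it was lower for Tet2 by a log2 difference of -0.93, for Tet1 by -0.63, for Dnmt1 by -0.19 and for Uhrf1 by -0.15. It was higher for Dnmt3l by 0.42, for Dnmt3a by 0.29, for Dnmt3b by 0.12 and for Tdg by 0.07, and Tet3 differed by -0.03. The median size of these deviations was 0.19 for the 9 genes, against 0.27 for all genes. Of all genes, 30.7% lay below Dnmt1, 35.1% below Uhrf1 and 62.3% below Dnmt3b, so these 3 were not at the edges of the distribution. In the other 7 libraries, the largest such difference of any of the 9 genes was 0.39, for Tet2 in replicate 2 of the same group, whose comparison includes the deviating library, and in GPATCH1-dTAG cells it was at most 0.18. Stem cell markers differed in this library as well. Dppa5a was at 1094 CPM against 503 to 602 in the other 7 libraries, and Pou5f1 at 1087 CPM against 702 to 821. Nanog was at 467 CPM against 555 to 592, and Klf4 at 249 CPM against 320 to 364. The summed level of the 8 markers was 5827 CPM there and 5183 to 5548 CPM in the others, and the part of these differences in the values of the 9 genes was not tested.

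The length of exon sequence moved with the deviation of this library over all genes. This length is that of all annotated exons of a gene joined together, not of a transcript. The median deviation was 0.20 in the decile of genes with the shortest exon sequence and -0.15 in the decile with the longest. Tet1, Tet2, Tet3 and Dnmt3a all belong to the longest decile, with 15457 to 16870 bases of exon sequence. Their longest annotated transcripts had 14369, 9179, 10904 and 9685 bases, in this order. Of the genes in that decile, 1.13% lay below Tet2 and 5.75% below Tet1, whereas 67.8% lay below Tet3 and 93.8% below Dnmt3a. Genes of the same decile thus deviated in opposite directions, and the part of exon or transcript length in the values of Tet1 and Tet2 was not tested.

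**Figure D4:**
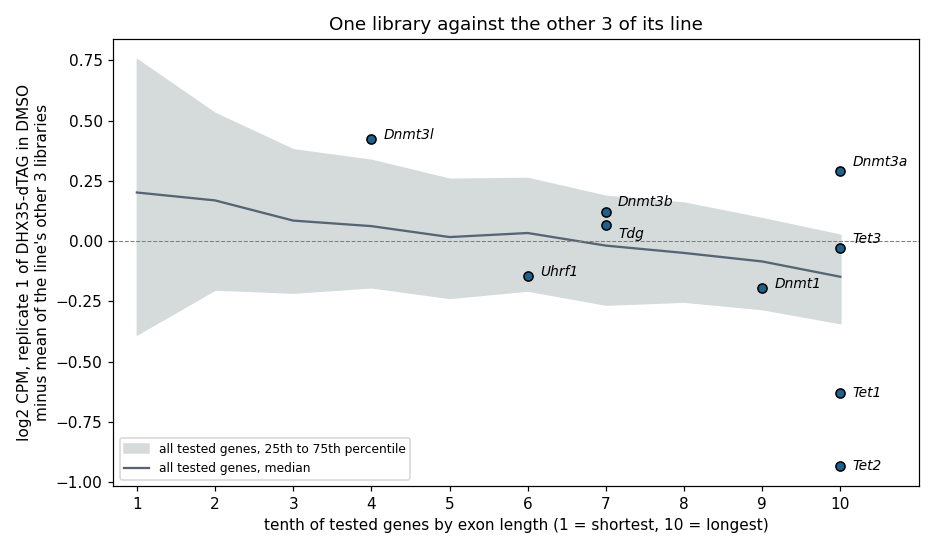
Log2 difference between DHX35-dTAG DMSO replicate 1 and the mean of the line's other 3 libraries (y axis) against the decile of tested genes by exon length (x axis), with the median and the middle 50 percent of all genes in grey and the 9 genes as points. Tet1 and Tet2 lie far below, and Dnmt3a above, genes of similar exon length.

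Other transcripts could share reads with the 9 genes. Tdg-ps2, a transcribed pseudogene of Tdg, had 131 to 346 counts, beside 507 to 801 for Tdg, and the split of reads between these copies is uncertain. Tdg-ps2 was at 9.68 CPM in DHX35-dTAG DMSO replicate 1 and at 19.6 to 23.1 CPM in the other libraries, while Tdg was at 47.3 CPM in that library. Aire, on the opposite strand, shares 67 bases of exon with Dnmt3l and had 347 to 560 counts. The other exonic neighbours on the opposite strand (Dnmt3aos, Gm42567 at Tet2 and Glt8d2 at Tdg) had at most 7 counts in a library. Dnmt3c, a rodent relative of Dnmt3b that acts in male germ cells, had at most 2 counts in a library.

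By their pattern over the 8 libraries, each gene was matched with the most similar of 8968 genes of at least 10 CPM outside the set, by Pearson's correlation of log2 CPM. Being the highest of so many candidates, these values are a description only. The match was Cep295 for Tet1 (r = 0.999), Hist1h4n for Tet2 (0.998), Rnaseh2a for Dnmt3l (0.998), Rgma for Dnmt1 (0.982) and Csrp1 for Dnmt3a (0.981). For Uhrf1 it was Sec61a1 (0.979), for Tet3 Cpsf4l (0.978), for Tdg Slc1a5 (0.971) and for Dnmt3b Fcsk (0.965). Without the library that stands apart, the same pairs had r between 0.912 for Uhrf1 and 0.987 for Dnmt3l.

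Of 13 partners and regulators of the methylation enzymes in the files, 11 were tested, and 0 passed in any of the 4 comparisons (edgeR, and likewise DESeq2 for each of the 5 related lists), with 0 at an unadjusted p under 0.05 for either depletion and 3 between the lines, where 15.1% of all genes had such a p. On DHX35 depletion, 6 of 11 were positive with a median log2 fold change of 0.00. Among genes with a mean of at least 1 CPM, as for each list that follows, the largest values were -0.24 for Trim28, the corepressor that guards imprints, and 0.12 for Usp7, the deubiquitinase that stabilises UHRF1 and DNMT1. Trim28 was at 3445 CPM in DHX35-dTAG DMSO replicate 1 and at 2284 to 2556 CPM in the other 7 libraries. Without that library, 3 of 11 were positive with a median of -0.04, and both named genes changed sign, to 0.06 for Trim28 and -0.03 for Usp7. On GPATCH1 depletion, the median was 0.01, and the largest values were -0.23 for Ogt, the GlcNAc transferase that binds TET proteins, and 0.20 for Ehmt2, the histone H3 lysine 9 methyltransferase G9a. Between the lines, the median was -0.07, with -0.24 for Prdm14, a repressor of Dnmt3b in naive cells, and -0.19 for Uhrf2. Without DHX35-dTAG DMSO replicate 1, the medians were 0.01 for GPATCH1 and -0.02 for the lines.

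All 8 readers of methylated CpG were tested, and 0 passed in any comparison, with 0 at an unadjusted p under 0.05 for either depletion and 1 between the lines. The median log2 value was 0.06 for DHX35, 0.01 for GPATCH1 and 0.05 for the lines. On DHX35 depletion, the largest values were 0.26 for Zbtb38 and 0.15 for Zbtb33 (Kaiso), both zinc finger proteins that bind methylated DNA. Zbtb38 was at 29.0 CPM in DHX35-dTAG DMSO replicate 1 and at 43.5 to 53.5 CPM in the other libraries. Without that library, both genes changed sign, to -0.07 and -0.08, and the median became -0.04 for DHX35, 0.01 for GPATCH1 and 0.01 for the lines. Without replicate 2 of that group, Zbtb38 had 0.73. On GPATCH1 depletion, they were -0.43 for Zbtb4, at a mean of 2.80 CPM, and -0.24 for Mbd2. Between the lines, they were -0.35 for Zbtb4 and 0.19 for Zbtb38, which became -0.28 and 0.02 without DHX35-dTAG DMSO replicate 1.

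Downstream of TET and TDG, 13 of 14 genes of base excision and its helpers were tested, and 0 passed, with 1 at an unadjusted p under 0.05 in each of the 4 comparisons. The median was -0.16 for DHX35, with 10 of 13 negative, 0.05 for GPATCH1 and 0.01 for the lines. The first of these rested on DHX35-dTAG DMSO replicate 1, without which 6 of 13 were negative and the median was 0.01, beside 0.05 for GPATCH1 and 0.02 for the lines. On DHX35 depletion, the largest values were -0.40 for Gadd45g and -0.32 for Neil2, a glycosylase, and without that library they became 0.25 and -0.36. Between the lines, they were 0.29 for Gadd45b and -0.27 for Apex1, the AP endonuclease, which became -0.04 without that library. On GPATCH1 depletion, they were -0.48 for Neil2 and 0.47 for Gadd45a, a stress gene linked to active demethylation. Gadd45a was at 17.5 and 17.2 CPM in GPATCH1-dTAG cells in DMSO and at 24.6 and 23.4 CPM in dTAG-13. Its groups were separate, with a standard error of 0.12 and an unadjusted p of 0.0041 (edgeR), but it did not pass after adjustment over all genes. The difference between the responses of both lines was 0.66 for Gadd45a (standard error 0.17, adjusted p = 0.86, edgeR). Without DHX35-dTAG DMSO replicate 1, this difference was 0.50.

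The methyl donor for these enzymes is made by MAT2A, and Mat2a had the lowest unadjusted p of this group on GPATCH1 depletion. Mat2a was at 525 and 526 CPM in GPATCH1-dTAG cells in DMSO and at 409 and 429 CPM in dTAG-13. In DHX35-dTAG cells, it was at 468 and 500 CPM in DMSO and at 481 and 485 CPM in dTAG-13. The log2 fold change on GPATCH1 depletion was -0.32 (standard error 0.08), with an unadjusted p of 0.0026 that did not pass after adjustment (edgeR), whereas DHX35 depletion gave -0.0038. The difference between these responses was -0.32 (standard error 0.11, adjusted p = 0.86, edgeR). Of the 9 genes for the methyl donor and the TET cosubstrate, 8 were tested and 0 passed, with 0 at an unadjusted p under 0.05 for DHX35, 1 for GPATCH1 and 4 for the lines, where 15.1% of all genes did. The median was -0.07, 0.03 and 0.01 in these comparisons, and -0.00, 0.03 and 0.03 without DHX35-dTAG DMSO replicate 1. D2hgdh, which clears the TET inhibitor 2-hydroxyglutarate, was 0.81 higher on the log2 scale in GPATCH1-dTAG cells (standard error 0.18, adjusted p = 0.10, edgeR), with separate lines, and did not pass. On DHX35 depletion, the largest values were -0.29 for D2hgdh and -0.23 for Ahcy, which became -0.22 and 0.09 without that library, and on GPATCH1 depletion Tdh, threonine dehydrogenase, followed Mat2a with 0.10.

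Mat2a and Gadd45a passed for GPATCH1 depletion in 3 of 14 other settings, in which 0.299%, 0.297% and 0.803% of all genes did. In the other 11, the adjusted p was at least 0.83 for Mat2a and 0.80 for Gadd45a (edgeR and DESeq2), also when any library of GPATCH1-dTAG cells was left out. Without DHX35-dTAG DMSO replicate 1, Mat2a had -0.32 (adjusted p = 0.012) and Gadd45a 0.47 (adjusted p = 0.031, edgeR). Without replicate 2 of that group, they had -0.32 (adjusted p = 0.012) and 0.47 (adjusted p = 0.033, edgeR). With only the 4 libraries of GPATCH1-dTAG cells, Mat2a had -0.33 (adjusted p = 0.00062), Gadd45a 0.46 (adjusted p = 0.011) and Ogt -0.24 (adjusted p = 0.028, edgeR).

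Germline genes that promoter methylation is known to keep silent were described as well. DNA methylation was not measured, and the link of their mRNA to it in these cells was not tested. Of the 12, 11 were tested, with at most 12.2 CPM for Dazl in any library, and Asz1 had 0 counts throughout. None passed in any comparison (edgeR), with 0 at an unadjusted p under 0.05 for either depletion and 1 between the lines. The median log2 value was -0.07 for DHX35, 0.03 for GPATCH1 and -0.06 for the lines. Without DHX35-dTAG DMSO replicate 1, it was -0.09, 0.02 and 0.12, so that the sign turned for the lines. On DHX35 depletion, the largest values were 0.42 for Dazl, an RNA-binding protein of germ cells, and -0.42 for Slc25a31. Dazl was at 5.99 CPM in DHX35-dTAG DMSO replicate 1 and at 8.66 to 12.2 CPM in the other libraries. Without that library, Dazl had 0.04 and Slc25a31 changed sign, to 0.69 (standard error 0.52). On GPATCH1 depletion, the largest values were -0.40 for Slc25a31 and 0.29 for Sycp1. Between the lines, Hormad1, a protein of the meiotic chromosome axis, differed by -0.53 on the log2 scale (standard error 0.13, adjusted p = 0.14, edgeR). It was at 4.52 to 5.48 CPM in GPATCH1-dTAG cells and at 6.28 to 8.42 CPM in DHX35-dTAG cells, and Sycp1 had 0.41. Without DHX35-dTAG DMSO replicate 1, Hormad1 had -0.63 and Sycp1 0.26.

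Between the lines, several genes of these lists passed once DHX35-dTAG DMSO replicate 1 was left out, when 5.29% of all genes did. Higher in GPATCH1-dTAG cells were D2hgdh (0.83 on the log2 scale), Gadd45b (0.35) and Idh1 (0.18), the isocitrate dehydrogenase that makes the TET cosubstrate. Lower were Hormad1 (-0.63), Dazl (-0.35), Prdm14 (-0.28) and Zfp57 (-0.18), the zinc finger protein of imprints. With all 8 libraries and no expression filter, when 890 of 32642 genes passed, D2hgdh (0.83, adjusted p = 0.0017), Hormad1 (-0.51, adjusted p = 0.040) and Ahcy (-0.26, adjusted p = 0.039, edgeR) did. With DHX35-dTAG DMSO replicate 2 left out, the lone control of that line is the library that stands apart. DHX35 depletion then gave -0.65 for Apex1 and -0.48 for Trim28, whereas Trim28 had 0.06 with replicate 1 left out in its place.

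**Figure D5:**
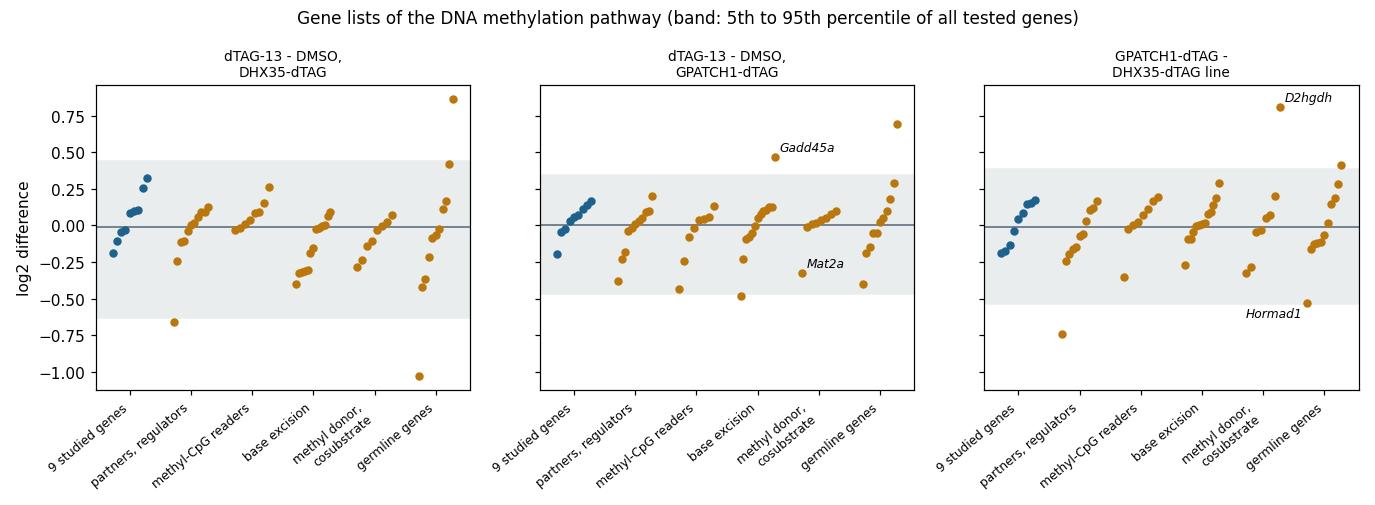
Log2 difference (y axis) of the 9 genes (blue) and of the tested genes of 5 related lists (brown) for DHX35 depletion, GPATCH1 depletion and the line difference, with a grey band from the 5th to the 95th percentile of all tested genes and a line at their median. The 9 genes lie between -0.19 and 0.33, and Mat2a and Gadd45a are named for GPATCH1 depletion.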

How the data were processed

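The authors depleted ribosomal RNA, added human DLD-1 RNA as a spike-in, made stranded libraries, trimmed reads with Trim Galore 0.6.6 and aligned them to mm10 (the same assembly as GRCm38) and hg19 with STAR 2.7.5c. The authors deposited raw counts per gene symbol, 1 table per library. The counting program, the annotation, the strand setting and the handling of human reads are not given in the sources used here. The test was that of edgeR 4.0.16 under R 4.3.3 (quasi-likelihood, glmQLFit with glmQLFTest, TMM, filterByExpr, 1 term per group, Benjamini-Hochberg adjustment over 16371 genes, threshold 0.05). A standard error is the size of the log2 fold change over the root of F, with 95% intervals from the test's degrees of freedom. The coefficient of variation between replicates was 11.2%, and counting error alone was at most 6.6%, for Tet3.

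Group and replicate came from the sample titles. The 9 genes and the lists were chosen with earlier results of these data known, and the lists are described by counts and medians only. From each other list, called genes were named, and otherwise the 2 with the largest change among those with a mean of at least 1 CPM. Dnmt3c, Asz1, Aire, Glt8d2, Gm42567, Dnmt3aos, Tdg-ps2, Lum, Nanog, Dhx35 and Gpatch1 were named outside this rule, and the promoter windows were chosen, after values were seen. A gene that the rule names is not reported here. Values of Mat2a, Gadd45a, Ogt and other list genes under further settings were also added then. Exon lengths came from GENCODE M21, with 15986 of the tested symbols matched to 1 gene. Replicates of a group differed beyond sampling noise, for which the chi-square per gene would be 1. It was 40.8 in DHX35-dTAG cells in DMSO and 37.9 in dTAG-13. In GPATCH1-dTAG cells it was 140 in DMSO and 5.51 in dTAG-13. The scripts were tried on simulated data. Alternatives were DESeq2 1.42.0, its size factors in edgeR, other filters, a replicate block, fits of 1 line and each library left out.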

Additional observations from a re-analysis of the deposited data

Results flagged for a closer look

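Over the 4 libraries of a line, each of the 9 genes was compared with Dixon's 95% limit (0.829 for 4 values). Of 18 such sets, 3 passed it, and in all 3 the lowest value was that of DHX35-dTAG DMSO replicate 1. Chance flags about 1 in 20. All 3 thus belong to DHX35-dTAG cells, where 3 of the 9 genes passed. Over all 16371 genes, 10.6% passed it in DHX35-dTAG cells, 8.72% through that library, and 4.58% in GPATCH1-dTAG cells. The genes were chosen with earlier results of these data known, and the count is not read as particular to them. Tet2 was at 278 CPM there, with 511 CPM in the nearest library. Tet1 was at 915 CPM, with 1374 CPM in the nearest library. Dnmt1 was at 301 CPM, with 341 CPM in the nearest library.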

How the results depend on the processing

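The count of 0 of the 9 genes held in each of the 4 comparisons under DESeq2, DESeq2's size factors, both other expression filters and the replicate block. It also held in the fit of 1 line for that line's own depletion, and in DMSO or dTAG-13 alone for the line difference. With a library left out, it ranged from 0 to 5 for DHX35 depletion, from 0 to 4 for the response difference and from 0 to 5 for the line difference, with every count above 0 coming without DHX35-dTAG DMSO replicate 2. Of the 504 values of single genes under alternatives, 20 changed sign without being called in either fit, 14 were called in that one fit and 0 reversed a call. The main fit called 0 of the 9 genes in each comparison, so it had no call that could be reversed. A group left with 1 library is assumed to vary like the others.

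Over all genes, calls with no filter on expression numbered 345 for DHX35 depletion, 21 for GPATCH1 depletion, 140 for the response difference and 890 between the lines. DESeq2 called 1, 0, 9 and 138. The fit of the DHX35-dTAG libraries called 1 gene and that of the GPATCH1-dTAG libraries 127, and the line difference had 15 in DMSO and 15 in dTAG-13 alone. With a library left out, the counts were from 0 to 4949 on DHX35 depletion, 0 to 51 on GPATCH1 depletion, 0 to 3592 for the response difference and 16 to 5149 for the line difference, the highest without DHX35-dTAG DMSO replicate 2. Without replicate 1 of that group, the line difference had 902. The cause was not tested.

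The replicate block gave 2 genes for the response difference and 132 between the lines. The correlations of replicate differences between groups were between 0.037 and 0.23, all positive and not all over 0.1. Replicates were therefore not treated as pairs in the main fit. These values cannot settle whether samples with the same replicate number belong together.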
